A study of Homo sapiens with 17 samples.

Results

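The E2F and DP genes encode the transcription factors through which the retinoblastoma pathway sets the entry of cells into S phase. The 10 members described here, E2F1 to E2F8, TFDP1 and TFDP2, were chosen by gene symbol. They and the gene lists below were chosen with earlier results of these data known. Their counts beside the shares of all genes are therefore descriptions. All 10 were found by Ensembl identifier among the 60664 genes of the table, and all 10 were among the 15599 genes that passed the minimum of 10 normalized counts on average and were tested. RNA-Seq was performed in SF8628, an established H3K27M-mutant diffuse midline glioma (DMG) cell line, treated for 24 or 48 hours with the solvent DMSO or with 1 μM AZD5153. AZD5153 is a bivalent inhibitor of BET bromodomain proteins, which bind acetylated histones and help RNA polymerase to transcribe. Each of the 4 groups (DMSO 24 h, DMSO 48 h, AZD5153 24 h and AZD5153 48 h) had 3 replicate libraries, all from this single line and all without irradiation. Nothing in the labels says whether the replicates were separate cultures, so the p-values measure the spread between these libraries, which may be technical.

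E2F proteins bind promoters of genes needed for DNA replication. E2F1, E2F2 and E2F3 are known as activators, and they are held in check by the retinoblastoma protein RB until cyclin-dependent kinases phosphorylate it. E2F4 and E2F5 act mainly as repressors with the pocket proteins p107 and p130 in resting cells, and E2F6 represses with a Polycomb complex and binds no pocket protein. E2F7 and E2F8, the atypical members, bind DNA without a DP partner and repress late in S phase. E2F1 to E2F6 need a DP partner, such as TFDP1 or TFDP2, with which they bind DNA. Several E2F genes are themselves known E2F targets, so that the family forms a feedback circuit.

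In brief, 8 of 10 members were lower with AZD5153 at 24 hours and none was higher, beside 34.6% and 33.9% of all tested genes. E2F2 and E2F8 fell furthest, to 4.04% and 4.66% of the DMSO mean, whereas E2F7, TFDP1, E2F1, E2F3, TFDP2 and E2F4 kept 36.7% to 76.6%. E2F5 and E2F6 did not pass the test at 24 hours. At 48 hours 9 members were lower and E2F6 was higher, beside 33.9% and 33.1% of all genes. The effect on 5 members (E2F1, E2F2, E2F7, E2F8 and TFDP1) was smaller than at 24 hours by a test of the difference, which called 14.4% of all genes with the higher value at 48 hours.

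The promoter sequences show which members carry the DNA letters that E2F proteins are known to bind. RefSeq promoter entries on GRCh38.p14 were matched by symbol for 8 members, 11 promoters in all, and E2F5 and E2F8 had no entry. The letters searched on both strands were TTTCCCGC, TTTCGCGC, TTTGCCGC and TTTGGCGC, in the window from 250 bases before to 50 bases after the start. They were found in 4 of the 11 member promoters, those of E2F1, E2F2, TFDP1 and the first of a pair of E2F3 starts, against 3.31% of all 35116 promoters in the RefSeq table. E2F1 held a pair of matches, 33 to 26 bases before its start on the minus strand of the gene and 20 to 13 bases before it on the plus strand. The match of E2F2 lay 42 to 35 bases, that of E2F3 53 to 46 bases and that of TFDP1 120 to 113 bases before the start. No match was found in the windows of E2F4, E2F6, E2F7, TFDP2 and the second E2F3 start. The letters TTTGAA of the cell cycle homology region (CHR), a site known from genes of late cell cycle phases, occurred in 3 of 11 member promoters (E2F3, 65 to 60 bases before its start, and a pair of TFDP2 starts) and in 15.2% of all promoters. All 4 members with E2F letters were lower with AZD5153 at 24 hours, as were E2F4, E2F7 and TFDP2 without them, beside 34.6% of all tested genes. E2F6, also without the letters, was not called at 24 hours. Whether genes with these letters were lower more often than others was not tested. A match is a description of letters, not of binding. The 250 bases before the start are printed 5′ to 3′ in the direction of the gene, with the E2F letters in capitals, for the 4 members with a match and, for contrast, for E2F7 and E2F6, which had none and of which E2F7 fell with AZD5153 while E2F6 did not:
E2F1, chr20:33686386-33686635, minus strand: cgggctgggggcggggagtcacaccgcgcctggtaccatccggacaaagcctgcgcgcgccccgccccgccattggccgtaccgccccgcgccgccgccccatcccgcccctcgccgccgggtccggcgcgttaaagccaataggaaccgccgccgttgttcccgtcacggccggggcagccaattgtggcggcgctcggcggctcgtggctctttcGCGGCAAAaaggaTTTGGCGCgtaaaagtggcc
E2F2, chr1:23531234-23531483, minus strand: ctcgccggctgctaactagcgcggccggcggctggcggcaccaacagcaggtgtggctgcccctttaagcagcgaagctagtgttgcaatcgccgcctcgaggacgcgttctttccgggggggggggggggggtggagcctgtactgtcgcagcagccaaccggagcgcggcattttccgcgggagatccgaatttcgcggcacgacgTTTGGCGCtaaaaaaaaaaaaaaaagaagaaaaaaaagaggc
E2F3, chr6:20401629-20401878, plus strand: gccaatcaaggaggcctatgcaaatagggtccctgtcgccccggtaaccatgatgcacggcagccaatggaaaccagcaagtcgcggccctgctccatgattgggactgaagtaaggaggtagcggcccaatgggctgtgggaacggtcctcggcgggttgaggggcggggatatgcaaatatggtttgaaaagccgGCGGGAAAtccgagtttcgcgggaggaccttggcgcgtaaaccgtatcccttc
TFDP1, chr13:113584503-113584752, plus strand: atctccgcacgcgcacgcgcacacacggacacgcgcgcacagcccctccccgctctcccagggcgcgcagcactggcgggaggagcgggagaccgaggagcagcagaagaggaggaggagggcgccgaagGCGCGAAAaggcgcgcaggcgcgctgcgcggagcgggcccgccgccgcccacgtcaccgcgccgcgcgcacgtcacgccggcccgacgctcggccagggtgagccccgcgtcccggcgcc
E2F7, chr12:77065570-77065819, minus strand: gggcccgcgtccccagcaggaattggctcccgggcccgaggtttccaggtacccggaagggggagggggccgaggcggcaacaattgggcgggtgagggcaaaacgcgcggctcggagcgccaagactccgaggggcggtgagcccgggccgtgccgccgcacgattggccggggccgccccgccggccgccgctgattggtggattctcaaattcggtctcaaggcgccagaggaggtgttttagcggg
E2F6, chr2:11466162-11466411, minus strand: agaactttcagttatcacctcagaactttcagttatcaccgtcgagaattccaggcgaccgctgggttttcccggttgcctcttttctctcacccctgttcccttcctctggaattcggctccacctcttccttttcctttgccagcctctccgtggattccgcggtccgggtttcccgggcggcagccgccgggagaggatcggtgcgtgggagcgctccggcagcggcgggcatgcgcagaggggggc

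The libraries held 15759148 to 27335220 reads on genes (median 20737337). Values are normalized counts, that is, gene counts divided by the size factor of the library. Every pair of replicates differed by more than sampling noise, and DMSO 24 h replicate 1 stood apart, since chi-square over degrees of freedom was 16.8 and 25.6 to the other replicates of its group and 2.12 to 5.21 for all other pairs. Leaving it out gave 8 members lower and 0 higher at 24 hours. The AZD5153 libraries differed from the DMSO libraries in a large share of all genes. The main counts of members are therefore set beside the share of all tested genes called in the same direction. Counts under alternatives are given without that share. The markers of the line were mixed. NES had 1872 to 2205 normalized counts in DMSO and 527 to 761 in AZD5153, CD44 4518 to 7024 against 6612 to 7603 with every AZD5153 library above the DMSO libraries of its time, SOX2 192 to 252 against 119 to 215, and VIM 15170 to 28352 against 14454 to 19727. GFAP had 22.8 to 57.5 normalized counts, PDGFRA had 0.892 to 5.4, and OLIG2 was at 0 in all 12 libraries. Among markers of other cell types, the summed myeloid list was 185 to 229.6 in DMSO and 36.5 to 57.6 in AZD5153, the endothelial list 331 to 643 against 59 to 92.5, and the oligodendrocyte list 198 to 344 against 37.6 to 52.3. In DMSO these sums rested mostly on CSF1R, PECAM1 and MBP. In AZD5153 at 48 hours PECAM1 had 27.2 to 33.4 normalized counts and VWF, also of the endothelial list, 18.8 to 31.9. The defining markers AIF1, CDH5 and MOG were at 0 in all 12 libraries. The epithelial list summed to 1028 to 1395 in DMSO and 1195 to 1835 in AZD5153, the neuron list to 701 to 884 against 745 to 922 with STMN2 at 0, and the erythroid list to 1.34 or less with HBB and HBA1 at 0. The part of these in the E2F results was not tested. In bulk RNA, fewer cells of a type or a cell cycle phase and less RNA per cell cannot be told apart.

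**Figure D1:**
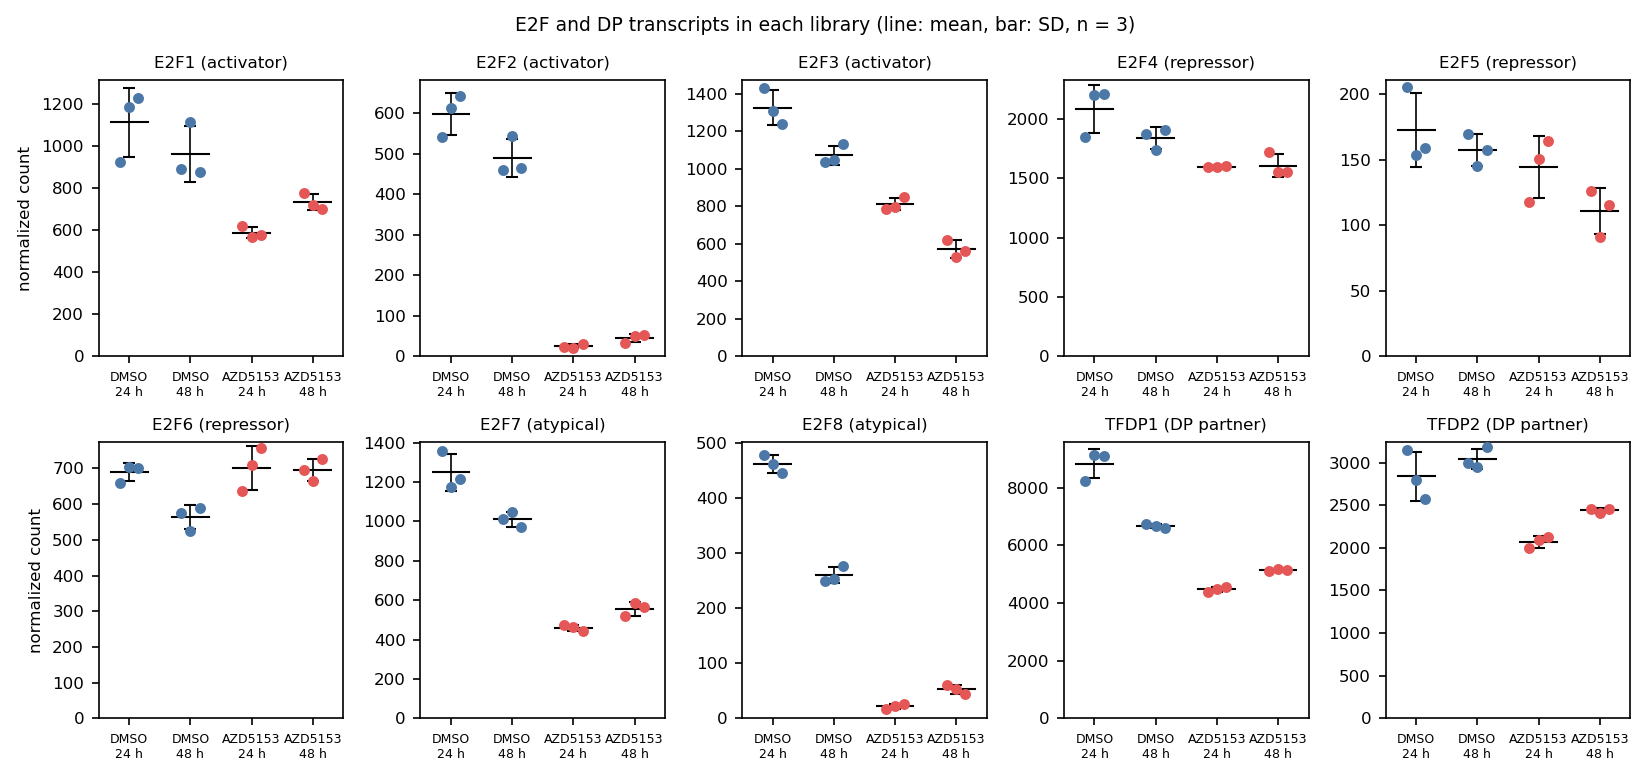
Normalized count of each E2F and DP gene (vertical axes, linear and starting at 0) in each of the 12 libraries, by group (horizontal axes). Points are libraries, blue for DMSO and red for AZD5153, and the black line and bar are the mean and SD of 3 replicates. E2F2 and E2F8 lie near the axis in AZD5153, E2F6 stays at 526 to 758 throughout, and TFDP1 is the most abundant by count.

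Among the activators, E2F2 (chr1:23506438-23531233, minus strand) fell to a small fraction of its DMSO level. At 24 hours its normalized counts were 542, 614 and 643 in DMSO and 22.8, 20.5 and 29.4 in AZD5153. At 48 hours they were 461, 543 and 465 in DMSO and 32.8, 48.9 and 53 in AZD5153. The groups lay far apart at both times, and the 3 AZD5153 libraries at 48 hours were all above the 3 at 24 hours. The means were 24.8-fold lower at 24 hours and 10.9-fold lower at 48 hours, which is a log2 fold change of -4.59 ± 0.18 (SE, adjusted p = 3.9e-12, limma) and of -3.44 ± 0.18 (adjusted p = 1.1e-10). The counts in AZD5153 at 24 hours rested on 17 to 24 reads per library, so they are measured less finely than those in DMSO, which rested on 431 to 862. E2F2 was the 38th lowest of the 15599 genes by log2 fold change at 24 hours. From 24 to 48 hours in AZD5153 it rose by 0.85 ± 0.18 on the log2 scale (adjusted p = 0.0022), and the effect at 48 hours was smaller than that at 24 hours by 1.14 (95% confidence interval 0.60 to 1.69, adjusted p = 0.0046).

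E2F1 (chr20:33675477-33686385, minus strand), the activator known to drive both S phase entry and apoptosis, was lowered less. In DMSO it had 924, 1186 and 1231 normalized counts at 24 hours and 894, 1114 and 876 at 48 hours. In AZD5153 it had 618, 568 and 579 at 24 hours and 778, 720.4 and 702 at 48 hours. All 3 AZD5153 libraries lay below all 3 DMSO libraries at each time, and by less at 48 hours. The log2 fold change was -0.91 ± 0.11 at 24 hours (adjusted p = 1.7e-06, limma) and -0.38 ± 0.11 at 48 hours (adjusted p = 0.0054). The effects differed by 0.53 (adjusted p = 0.02), a difference that no longer passed the threshold without DMSO 24 h replicate 2, DMSO 48 h replicate 1, DMSO 48 h replicate 3 or AZD5153 48 h replicate 1 (0.48, 0.48, 0.46 and 0.48, adjusted p from 0.051 to 0.058), nor with eBayes without trend (adjusted p = 0.06).

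E2F3 (chr6:20401879-20493714, plus strand), the activator whose gene has alternative starts, moved otherwise with time. Its normalized counts were 1428, 1309 and 1240.1 in DMSO against 787, 797 and 848 in AZD5153 at 24 hours. They were 1038, 1044 and 1129 against 621, 529 and 562 at 48 hours. The groups did not overlap at either time, and the values at 48 hours were below those at 24 hours in both treatments. This was a log2 fold change of -0.71 ± 0.08 at 24 hours (adjusted p = 5.7e-07, limma) and -0.91 ± 0.08 at 48 hours (adjusted p = 2.9e-08). The difference between the times was -0.20 (95% confidence interval -0.43 to 0.03, adjusted p = 0.19). E2F3 was the single member called lower at 48 than at 24 hours in AZD5153, by a log2 fold change of -0.51 (adjusted p = 0.00013).

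Of the repressors, E2F4 (chr16:67192155-67198918, plus strand), the most abundant E2F in resting and cycling cells alike, changed little. Its normalized counts were 1854, 2202 and 2211 in DMSO and 1594, 1597 and 1607 in AZD5153 after 24 hours. At 48 hours they were 1874, 1738 and 1911 against 1726, 1550.5 and 1551. The groups did not overlap, though at 48 hours the gap between the nearest libraries (1738 and 1726) was narrow. In the fit, the log2 fold change was -0.38 ± 0.07 at 24 hours (adjusted p = 0.0002, limma) and -0.19 ± 0.07 at 48 hours (adjusted p = 0.024). The call at 48 hours was lost with scaling on 7 stably expressed genes (adjusted p = 0.083), with eBayes without trend (0.054), and without DMSO 48 h replicate 1 or 3 or AZD5153 48 h replicate 2 or 3 (adjusted p from 0.073 to 0.089). Over all alternatives the value at 48 hours lay between -0.37 and -0.17.

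E2F5 (chr8:85177154-85217158, plus strand), a p130-binding repressor, was the least abundant member in DMSO. Its normalized counts were 205, 154 and 159 in DMSO and 118, 151 and 164 in AZD5153 after 24 hours, and these ranges overlapped. At 48 hours they were 169, 145 and 158 against 126, 91.3 and 116, with every AZD5153 library lower. Tested over all genes, the change on the log2 scale was -0.26 ± 0.17 at 24 hours (adjusted p = 0.18, limma) and -0.51 ± 0.17 at 48 hours (adjusted p = 0.013). The value at 24 hours was -0.13 without DMSO 24 h replicate 1, -0.12 without AZD5153 24 h replicate 1 and -0.06 with quantile normalization, and it was not called under any alternative (adjusted p from 0.054 to 0.76). The call at 48 hours was lost with quantile normalization, which gave -0.17 (adjusted p = 0.38), without DMSO 48 h replicate 1 (-0.46, adjusted p = 0.051) and without AZD5153 48 h replicate 2 (-0.38, adjusted p = 0.071). From 24 to 48 hours in AZD5153 E2F5 had a log2 fold change of -0.38 (adjusted p = 0.11), which passed the threshold without AZD5153 24 h replicate 1 (-0.51, adjusted p = 0.047). RBIS, a gene on the opposite strand, shares 997 exon bases with E2F5 and had a mean of 107 normalized counts against 146 for E2F5. The sources used here do not give the strand setting of the counting, so reads of this stretch cannot be told apart. RBIS itself had log2 fold changes of 0.22 (adjusted p = 0.31) and 0.27 (adjusted p = 0.22).

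E2F6 (chr2:11444375-11466177, minus strand), the Polycomb-linked repressor, was the single member that was not lower at either time. Its normalized counts were 661, 705 and 703 in DMSO and 637, 709 and 758 in AZD5153 after 24 hours, which overlapped. They were 576, 526 and 591 against 695, 664 and 726 at 48 hours, with every AZD5153 library above every DMSO library. The log2 fold change was 0.02 ± 0.08 at 24 hours (95% confidence interval -0.15 to 0.19, adjusted p = 0.82, limma) and 0.30 ± 0.08 at 48 hours (adjusted p = 0.0033). The value at 24 hours turned to -0.02 with scaling on 7 stably expressed genes and to -0.10 with scaling to equal totals, and the rise at 48 hours was 0.13 (adjusted p = 0.16) with equal totals. The AZD5153 libraries stood at like levels at both times (means 701 ± 60.7 and 695 ± 31.3, SD, n = 3), whereas DMSO went from 689 ± 24.9 to 564 ± 34, a fall of 0.29 ± 0.08 on the log2 scale (adjusted p = 0.0097). The call of this fall was lost without DMSO 48 h replicate 2 (-0.24, adjusted p = 0.055).

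Both atypical members fell at both times. E2F8 (chr11:19224063-19241620, minus strand) had 478, 462 and 446 normalized counts in DMSO against 17.4, 21.5 and 25.7 in AZD5153 after 24 hours. After 48 hours it had 249.5, 254 and 276 in DMSO and 60.2, 53.2 and 44.5 in AZD5153. The DMSO and AZD5153 values thus drew closer from both sides, and no group overlapped another. The means were 21.4-fold lower at 24 hours and 4.94-fold lower at 48 hours, a log2 fold change of -4.38 ± 0.16 (adjusted p = 2e-12, limma) and of -2.29 ± 0.16 (adjusted p = 4e-09). At 24 hours in AZD5153 it rested on 13 to 21 reads per library. E2F8 was the 51st lowest gene by log2 fold change at 24 hours and the 737th lowest at 48 hours. The difference between the times, 2.08 (95% confidence interval 1.595 to 2.57, adjusted p = 1.4e-05), stood at the 99.9th percentile of all tested genes. It was made up of a fall of 0.83 ± 0.16 from 24 to 48 hours in DMSO (adjusted p = 0.00097) and a rise of 1.26 ± 0.16 in AZD5153 (adjusted p = 3.4e-05).

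E2F7 (chr12:77021248-77065569, minus strand) fell less than E2F8, with which it is known to pair and to share targets. It had 1356, 1177 and 1215 normalized counts in DMSO and 472, 462 and 442 in AZD5153 after 24 hours. It had 1011, 1049 and 969.6 against 517, 585 and 564 at 48 hours. The groups lay clear of each other, and the AZD5153 libraries at 48 hours all exceeded those at 24 hours. This was a log2 fold change of -1.44 ± 0.07 at 24 hours (adjusted p = 9.2e-11, limma) and -0.86 ± 0.07 at 48 hours (adjusted p = 4.2e-08). The effects differed by 0.58 (95% confidence interval 0.35 to 0.80, adjusted p = 0.00099).

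The DP partners, on which E2F1 to E2F6 depend for DNA binding, were lower at both times. TFDP1 (chr13:113584721-113641473, plus strand) had 8247, 9126 and 9114 normalized counts in DMSO and 4374, 4484 and 4557 in AZD5153 after 24 hours. It had 6753, 6673 and 6597 against 5114, 5197 and 5150.0 at 48 hours. The DMSO level fell with time and the AZD5153 level rose, without overlap between any of the groups. In the fit, the log2 fold change was -0.98 ± 0.05 at 24 hours (adjusted p = 2.8e-11, limma) and -0.37 ± 0.05 at 48 hours (adjusted p = 2.5e-06), and the effects differed by 0.61 (95% confidence interval 0.47 to 0.74, adjusted p = 1e-05). The pseudogene TFDP1P2, which resembles TFDP1 and could share reads with it, had a mean of 11.6 normalized counts against 6282 for TFDP1. Its log2 fold changes were -2.25 (adjusted p = 0.011) and -2.17 (adjusted p = 0.014), and with means of 19.5 and 17.8 in DMSO against 5.85 and 3.22 in AZD5153 it passed the minimum level only through the DMSO libraries.

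TFDP2 (chr3:141944428-142149544, minus strand) had 3146, 2799 and 2577 normalized counts in DMSO and 1994, 2089 and 2127 in AZD5153 after 24 hours. After 48 hours the values were 2995, 2952 and 3179 against 2453, 2403 and 2459. Its groups did not overlap at either time. The DMSO level at 48 hours was not called different from that at 24 hours (0.10 ± 0.06 on the log2 scale, adjusted p = 0.23). It was called higher with quantile normalization (0.21, adjusted p = 0.02) and without DMSO 24 h replicate 1 (0.18, adjusted p = 0.0087). Leaving out each library in turn gave 0.04 to 0.18. Tested over all genes, the change on the log2 scale was -0.45 ± 0.06 at 24 hours (adjusted p = 1.2e-05, limma) and -0.32 ± 0.06 at 48 hours (adjusted p = 0.00038). The difference between times was 0.13 (95% confidence interval -0.06 to 0.33, adjusted p = 0.31). It was 0.06 without DMSO 24 h replicate 1, 0.20 without DMSO 24 h replicate 3 and 0.02 with quantile normalization, not called in any of these. RPL19P6, a pseudogene that lies within TFDP2 without shared exon bases, had a mean of 10.1 normalized counts and log2 fold changes of -0.51 (adjusted p = 0.44) and 0.04 (adjusted p = 0.95). With means of 14.2 and 9.02 in DMSO against 7.92 and 9.36 in AZD5153, it passed the minimum level only through DMSO at 24 hours.

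**Figure D2:**
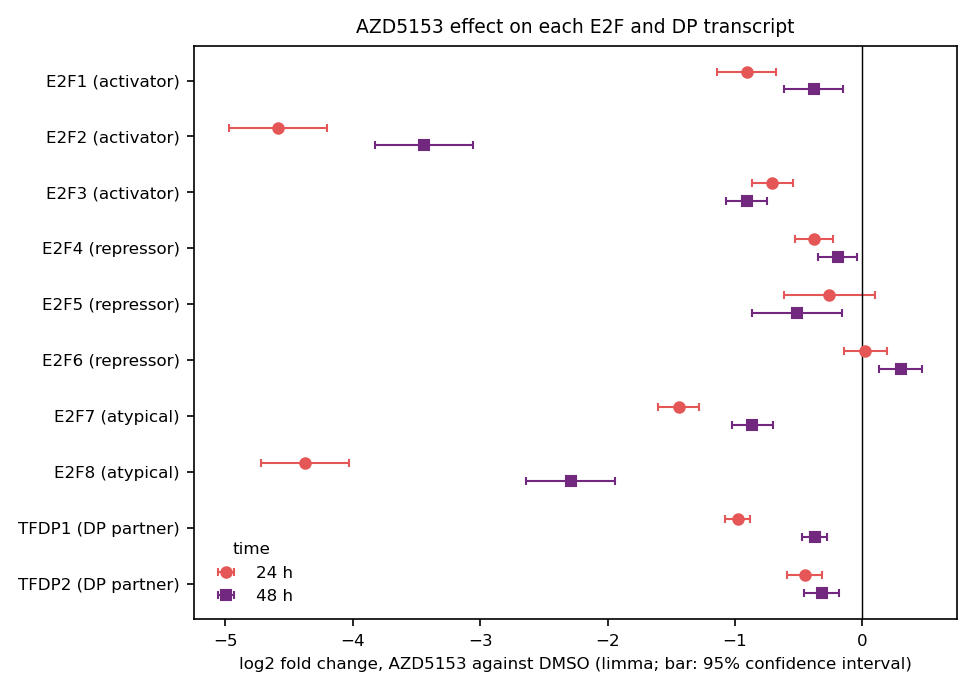
Log2 fold change of AZD5153 against DMSO (horizontal axis) for each E2F and DP gene (rows) at 24 hours (circles) and 48 hours (squares), with 95% confidence intervals from limma. E2F2 and E2F8 lie at -4.59 and -4.38 at 24 hours. The squares of E2F1, E2F2, E2F7, E2F8 and TFDP1 lie to the right of the circles, with a difference that was called. Those of E2F4, E2F6 and TFDP2 also lie to the right and those of E2F3 and E2F5 to the left, with no difference called.

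Counted together, 8 members were lower and 0 higher at 24 hours, where 34.6% of all tested genes were called lower and 33.9% higher. At 48 hours 9 members were lower and 1 was higher, where 33.9% of all genes were called lower and 33.1% higher. With limma 0 members were higher at 24 hours at an unadjusted p under 0.05 too, and the edgeR quasi-likelihood test and DESeq2 on the recovered reads called 0. The median log2 fold change of the 10 members was -0.81 at 24 hours and -0.45 at 48 hours, beside a median of 0.00 over all tested genes at each time. The size factors set the typical gene near 0, so this median and the shares of genes lower and higher depend on that scaling. A change shared by all genes cannot be seen in these values and was not tested. Every AZD5153 library was below every DMSO library for 8 members at 24 hours and 9 at 48 hours, and this held for 34.8% and 37.2% of all genes. The reverse, every AZD5153 library above, was seen for E2F6 at 48 hours and for 34% of all genes at 24 hours and 37.5% at 48 hours. The effect differed between times for 5 members, all with the higher value at 48 hours, where 14.4% of all genes were called in that direction and 10.1% in the other. Of these 5, 2 were activators, 2 atypical, 1 a DP partner and 0 repressors. Without DMSO 24 h replicate 1 the repressors E2F4 (0.27, adjusted p = 0.011) and E2F6 (0.31, adjusted p = 0.038) were called too. E2F6 was also called with scaling on 7 stably expressed genes (0.35, adjusted p = 0.039) and without AZD5153 24 h replicate 3 (0.34, adjusted p = 0.045). Over both times, 38% of all genes were called lower and 37.7% higher, and of the members 9 were lower and E2F6 was higher. There the call of E2F6 (0.16, adjusted p = 0.016) was lost with scaling to equal totals (0.01, adjusted p = 0.82) and that of E2F5 (-0.39, adjusted p = 0.0076) with quantile normalization (-0.12, adjusted p = 0.39).

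**Figure D3:**
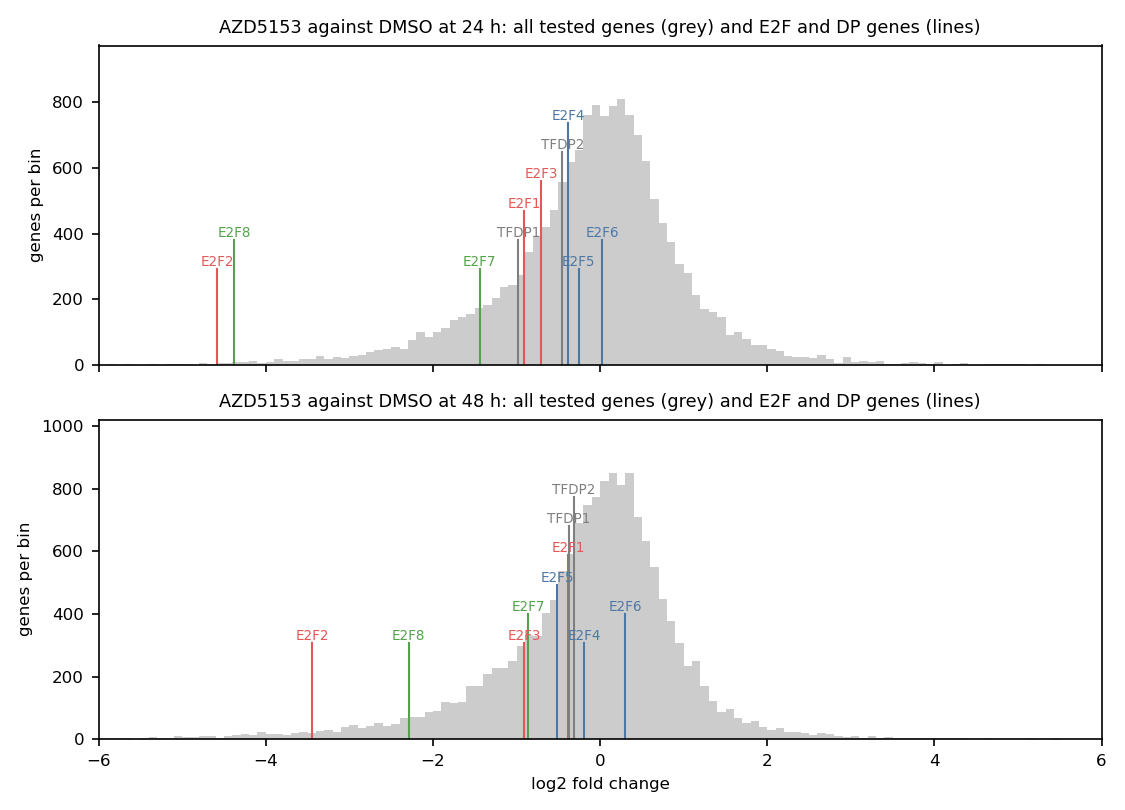
Number of tested genes (vertical axes) in bins of 0.1 of the log2 fold change of AZD5153 against DMSO (horizontal axis), in grey, with the E2F and DP genes as coloured lines (red activators, blue repressors, green atypical, grey DP partners; line heights carry no value). The axis ends at -6 and 6, beyond which 12 genes lie at 24 hours and 21 at 48 hours. E2F2 and E2F8 stand in the left tail at both times and the other members within or beside the bulk.

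Between the times in DMSO, 5 members were lower at 48 than at 24 hours (E2F3, E2F6, E2F7, E2F8 and TFDP1) and 0 were higher (also 0 at an unadjusted p under 0.05 in limma, and 0 with edgeR and DESeq2), where 19.3% of all genes were called lower and 16.4% higher. Without DMSO 24 h replicate 1, 7 members were lower, with E2F1 (-0.34, adjusted p = 0.0029) and E2F4 (-0.26, adjusted p = 0.0009) added, and TFDP2 was higher (0.18, adjusted p = 0.0087). E2F1 was also called without DMSO 48 h replicate 2 (-0.32, adjusted p = 0.039), E2F4 with edgeR with no filter (-0.19, adjusted p = 0.042) and TFDP2 with quantile normalization (0.21, adjusted p = 0.02). In AZD5153, E2F3 was lower and 6 members were higher at 48 hours (E2F1, E2F2, E2F7, E2F8, TFDP1 and TFDP2), where 13.8% of all genes were called lower and 15.8% higher. The call of E2F1 (0.32, adjusted p = 0.037) was lost without any 1 of the 6 AZD5153 libraries (adjusted p from 0.054 to 0.13), with edgeR (0.052), with quantile normalization (0.059), with no minimum mean (0.061) and with eBayes without trend (0.087). That of E2F7 was lost without AZD5153 48 h replicate 2 (adjusted p = 0.055) and that of TFDP2 without AZD5153 24 h replicate 1 (adjusted p = 0.053). The 6 members called higher in AZD5153 came to between 115% (TFDP1) and 244% (E2F8) of their means at 24 hours. None of these means reached the DMSO mean of 48 hours, of which they stood at 9.17% (E2F2), 20.3% (E2F8), 55% (E2F7), 76.3% (E2F1), 77.2% (TFDP1) and 80.2% (TFDP2). The comparisons between times and between treatments share libraries, so their values are not independent of each other.

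To compare levels between genes, normalized counts were divided by the kilobases of exon of each gene. On this scale TFDP1 was highest in every group, at 2358 ± 135 for DMSO and 1194 ± 24.6 for AZD5153 after 24 hours (SD, n = 3). E2F4 came next (581 ± 56.5 and 445 ± 1.87) and E2F1 followed (414 ± 61.6 and 219 ± 9.76), and the ranges of these 3 did not overlap in any group. In DMSO at 24 hours the order went on with E2F3 (255), TFDP2 (239), E2F7 (199), E2F6 (169), E2F8 (112), E2F2 (109.8) and E2F5 (28.8). There E2F3 overlapped TFDP2 and E2F8 overlapped E2F2, and all other neighbours were apart. In DMSO at 48 hours no neighbours overlapped, TFDP2 stood above E2F3 and E2F2 above E2F8. In AZD5153 at 24 hours E2F6 (172) lay between TFDP2 (174) and E2F3 (156) with overlapping ranges. E2F7 (72.9) and E2F5 (24) came next and E2F5 stood above E2F8 (5.21) and E2F2 (4.43), and these last members overlapped. In AZD5153 at 48 hours the order was the same and no neighbours overlapped, with E2F8 at 12.7 and E2F2 at 8.22. E2F5 thus was the lowest member in DMSO and E2F2 in AZD5153.

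The classes were described by the sum of the levels per kilobase of their members, with no test. The activators summed to 718, 805 and 814 in DMSO and to 386, 368 and 384 in AZD5153 at 24 hours. The repressors summed to 712, 811 and 814 against 619.6, 643 and 661. The atypical members summed to 331, 299 and 301 against 79.2, 78.6 and 76.5. In each library of DMSO at 24 hours activators and repressors were thus nearly equal, while in AZD5153 the repressors were the larger class. The ratio of activators to repressors was 1.00 ± 0.01 in DMSO and 0.59 ± 0.03 with AZD5153 after 24 hours (SD, n = 3), against 0.97 ± 0.13 and 0.61 ± 0.01 after 48 hours. The DMSO 48 h libraries ranged from 0.892 to 1.12, the highest being replicate 2, and all lay above the AZD5153 libraries (0.573 to 0.622 over both times). With the longest transcript as length in place of all exons, the mean ratio over both times changed from 0.985 to 0.755 in DMSO and from 0.603 to 0.463 in AZD5153, so the ratio itself depends on the length used.

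As a share of the summed E2F level, the repressors made up 41.7% ± 1.06 in DMSO and 58.4% ± 1.06 with AZD5153 after 24 hours, against 43.6% ± 2.85 and 56.4% ± 0.60 after 48 hours. The activator share was 41.7% ± 0.79 in DMSO and 34.5% ± 0.92 in AZD5153 after 24 hours, and 42% ± 2.80 and 34.6% ± 0.43 after 48 hours. The atypical share was 16.7% ± 1.85 and 7.11% ± 0.26, and then 14.4% ± 0.12 and 8.97% ± 0.75 (SD, n = 3 in each group). The DP partners together summed to 2597 ± 113 in DMSO and to 1368 ± 30.4 with AZD5153 after 24 hours, then to 2038 ± 14.8 and 1581 ± 9.07 after 48 hours. Set against the typical E2Fs that need them, the DP level was 1.67-fold for DMSO against 1.34-fold for AZD5153 after 24 hours, and 1.53-fold against 1.54-fold after 48 hours.

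Within classes the members parted. E2F2 was 26.7% of E2F1 on the per-kilobase scale in DMSO at 24 hours (25.5% to 28.9%) and 2.03% in AZD5153 (1.77% to 2.50%), and at 48 hours it was 25.2% against 3.05%. E2F8 was 56.4% of E2F7 in DMSO at 24 hours and 7.19% in AZD5153, and 39.2% against 14.5% at 48 hours. E2F6 was 29.3% of E2F4 in DMSO against 38.7% in AZD5153 after 24 hours, and 27.1% against 38.3% after 48 hours. TFDP2 was 10.2% of TFDP1 in DMSO at 24 hours and between 14.3% and 14.9% in the means of the other 3 groups.

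**Figure D4:**
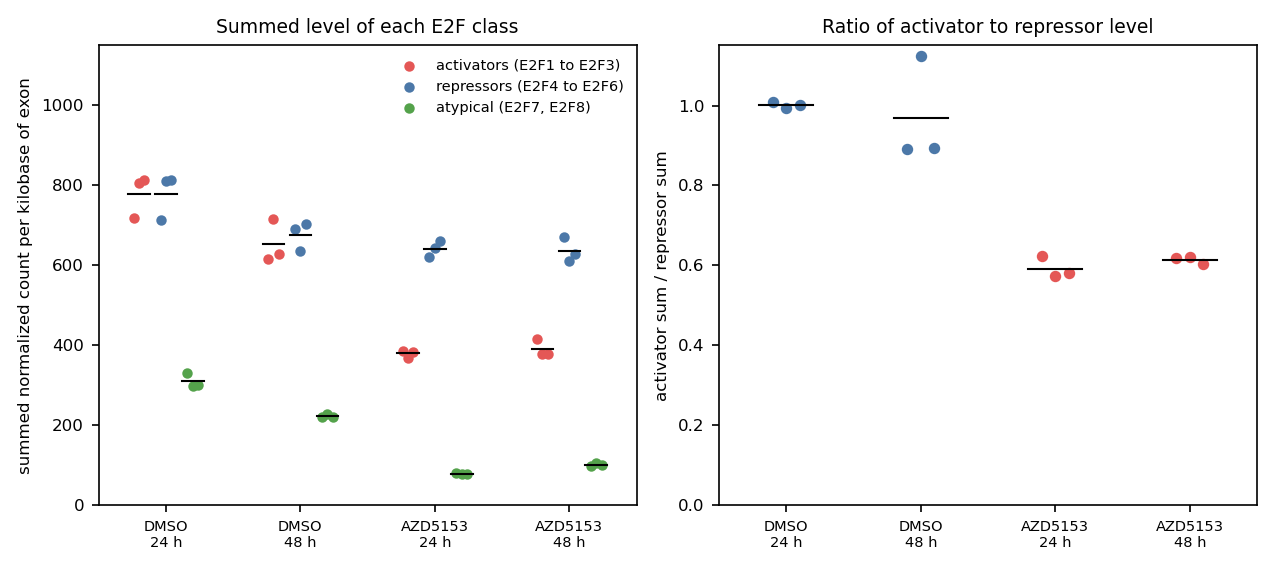
Left, summed normalized count per kilobase of exon (vertical axis, from 0) of the activators, repressors and atypical members in each library, by group. Right, the activator sum divided by the repressor sum, blue for DMSO and red for AZD5153. Points are libraries and black lines means of 3. The ratio lies at 0.892 to 1.12 in DMSO and 0.573 to 0.622 in AZD5153.

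The pocket proteins, which bind and restrain E2Fs, were measured beside the members. RB1, which encodes RB, had log2 fold changes of -0.15 ± 0.08 (adjusted p = 0.12, limma) and -0.11 ± 0.08 (adjusted p = 0.27) at 24 and 48 hours. RBL1, which encodes p107 and is itself a known E2F target, had 913 ± 86.8 normalized counts in DMSO and 259 ± 26.4 with AZD5153 after 24 hours (SD, n = 3), and after 48 hours 615 ± 19.5 and 361 ± 49.7. Its log2 fold changes were -1.81 ± 0.11 (adjusted p = 4.6e-10) and -0.77 ± 0.11 (adjusted p = 9.7e-06). RBL2, which encodes p130, the pocket protein of resting cells, had 1628 ± 63.2 and 719 ± 65.1 after 24 hours and 1858 ± 121 and 1025 ± 61.2 after 48 hours. Its log2 fold changes were -1.18 ± 0.07 (adjusted p = 1e-09) and -0.86 ± 0.07 (adjusted p = 4.7e-08).

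Of 44 known E2F targets of S phase entry (RBL1, MYBL2, CCNE1 and CCNE2 among them, which other lists hold too), 43 were lower and 0 higher at 24 hours, beside 34.6% of all genes lower and 33.9% higher. The gene not called, CCNE2, named after its values were seen, had -0.41 (adjusted p = 0.13). With limma 0 of the 44 were higher at an unadjusted p under 0.05, and edgeR and DESeq2 called 0. At 48 hours 38 were lower, 3 higher and 3 not called, beside 33.9% lower and 33.1% higher over all genes. The median log2 fold change of the list was -1.54 at 24 hours and -0.95 at 48 hours. CCNA2, the S phase cyclin, had log2 fold changes of -2.72 and -1.63. MCM5, a subunit of the replicative helicase, had -2.48 and -2.20. PRIM1, the primase that starts DNA chains, had -2.25 and -2.07. The 3 genes higher at 48 hours, chosen here after their values were seen apart from CCNE1, were CCNE1, the G1/S cyclin, with -0.36 at 24 hours and 0.56 at 48 hours, RRM2, a subunit of ribonucleotide reductase, with -0.85 and 0.52, and SLBP, which binds histone mRNA, with -0.47 and 0.16. The effect differed between times for 32 of the 44, all with the higher value at 48 hours (14.4% of all genes, and 10.1% in the other direction). In DMSO alone 39 of the 44 were lower at 48 than at 24 hours and 0 were higher, beside 19.3% and 16.4% of all genes. In AZD5153 20 were higher and 3 lower, beside 15.8% and 13.8%.

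MuvB, the complex that joins p130 and E2F4 in resting cells and MYBL2 and FOXM1 in cycling cells, was described by 8 genes, of which 7 were lower and 0 higher at each time, beside 34.6% of all genes lower and 33.9% higher at 24 hours and 33.9% and 33.1% at 48 hours. LIN9, a MuvB subunit, had log2 fold changes of -2.36 and -1.16, MYBL2 (B-MYB) -1.56 and -1.24, and FOXM1 -1.67 and -1.99. The gene not called at either time was LIN37, named after its values were seen, with 0.95 (adjusted p = 0.12) and 1.17 (adjusted p = 0.062). It was the 1 gene higher at an unadjusted p under 0.05 in limma at 48 hours (0 at 24 hours), and edgeR and DESeq2 called 0. Over both times LIN37 was called higher (1.06, adjusted p = 0.018, limma) and 7 genes lower, beside 37.7% and 38% of all genes. LIN37 averaged 9.44 and 7.31 normalized counts in DMSO against 20.04 and 14.5 in AZD5153, so it passed the minimum level only through the AZD5153 libraries.

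The partners of E2F6 in the Polycomb complex PRC1.6 moved both ways. Of 12 genes, 7 were lower and 4 higher at 24 hours, beside shares of 34.6% and 33.9% over all genes. After 48 hours the drug left 4 lower and 4 higher than DMSO, near the 33.9% and 33.1% of all genes, and the 12 had medians of -0.13 and -0.04. PCGF6, the subunit that defines this complex, had -1.09 and -0.81, the ubiquitin ligase RNF2 -0.89 and -0.48, and CBX3, a reader of histone methylation, -0.45 and -0.24. HDAC1, a histone deacetylase, had 0.25 and 0.67, RING1, a ubiquitin ligase like RNF2, 0.35 and 0.43, and RYBP 0.21 and 0.38. Of 12 germline genes that E2F6 is known to silence, 2 passed the minimum level. STAG3, a meiotic cohesin subunit, had 1.63 and 1.65 at a mean of 31.7 normalized counts in DMSO at 24 hours, and TUBA3D, a tubulin, -1.61 and -2.49 at a mean of 29.7. TUBA3D averaged under the minimum of 10 in AZD5153 (9.16 and 6.61), so it passed only through the DMSO libraries.

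The 8 coactivators of E2F proteins were 5 lower and 3 higher at 24 hours, and 5 lower and 2 higher at 48 hours, beside 34.6% of all genes lower and 33.9% higher at 24 hours and 33.9% and 33.1% at 48 hours. CREBBP, an acetyltransferase that binds E2F1, had log2 fold changes of -0.84 and -0.86, KAT5 -0.52 and -0.48 and KAT2A -0.41 and -0.22. KAT2B, an acetyltransferase that modifies E2F1, had 0.72 and 1.54, and TRRAP, a scaffold of acetyltransferase complexes, 0.12 and 0.18. Of 7 genes of E2F turnover, 6 were lower and 1 higher at 24 hours, and 4 were lower and 1 higher at 48 hours, beside the same shares of all genes. FBXO5, the inhibitor of the ligase APC/C, had -2.05 and -0.70. SKP2, a ubiquitin ligase subunit that targets E2F1, had -1.18 and -0.50, and UCHL5, a deubiquitinase, -0.99 and -0.50. USP11, also a deubiquitinase, had 1.19 and 1.44.

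Upstream of RB and E2F, 13 of 15 G1 cyclins, kinases and inhibitors were tested, with 7 lower and 5 higher at 24 hours and 6 lower and 5 higher at 48 hours. Of all genes 34.6% were lower and 33.9% higher at 24 hours, and 33.9% and 33.1% at 48 hours. The kinases that phosphorylate RB fell, with log2 fold changes of -1.74 and -0.89 for CDK2, -1.04 and -0.98 for CDK6 and -0.90 and -0.95 for CDK4. CDKN1A, the CDK inhibitor p21, had 255 ± 41.1 normalized counts in DMSO and 6975 ± 296 with AZD5153 after 24 hours, and 302 ± 37.9 and 4934 ± 141 after 48 hours, with log2 fold changes of 4.78 and 4.03. CCND1, a D-type cyclin, had 1.33 and 1.05, and CCND3 0.45 and 0.93. Of 12 apoptosis genes known as E2F1 targets, 10 were tested, with 3 lower and 4 higher at 24 hours and 4 lower and 5 higher at 48 hours, beside those same shares of all genes. TP53INP1 had 2.41 and 1.96, the caspase CASP9 1.37 and 1.503 and BCL2L11, which encodes the proapoptotic protein BIM, 1.28 and 1.18. CDKN2A, which encodes p16 and ARF, had -0.63 and -1.10, the caspase CASP8 -0.70 and -0.63 and PMAIP1, which encodes the proapoptotic protein NOXA, -0.58 and -0.78.

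**Figure D5:**
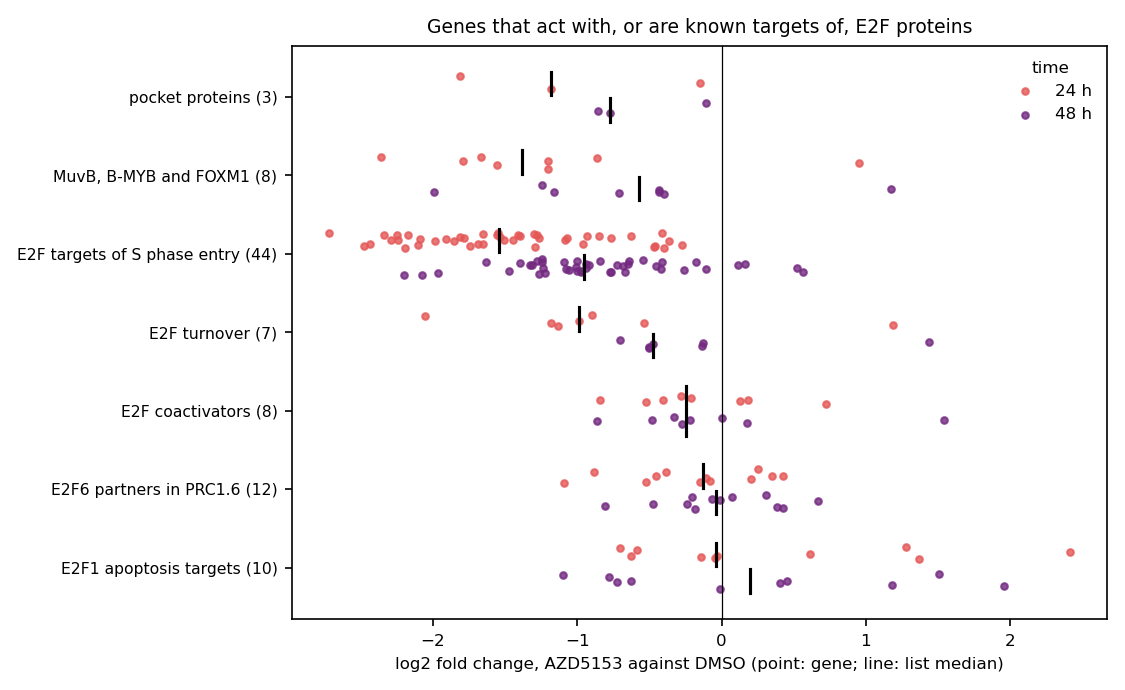
Log2 fold change of AZD5153 against DMSO (horizontal axis) for the tested genes of 7 lists (rows, number of genes in brackets) at 24 hours (red) and 48 hours (purple). Points are genes, spread vertically for legibility, and black lines are list medians. The S phase targets lie below 0 at 24 hours, with a median of -1.54, while the PRC1.6 partners lie on both sides of 0, with 7 lower and 4 higher.

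For a member of each class, the genes most like it over the 12 libraries were taken by Pearson correlation of log2 values, among 10848 genes that averaged 100 normalized counts or more. The points share libraries, treatment and size factors, so the correlations are descriptions. For E2F1 these were MICALL1 (r = 0.97), EFHD2, DCLK2, NCAPH2, a condensin subunit, and UNG, the uracil-DNA glycosylase (r = 0.96). For E2F4 they were KRT10-AS1 (r = 0.96), an antisense gene whose reads may not be told apart from those of its partner, TRMT2B, TONSL, PTBP1 and DDX39A (r = 0.94). For E2F7 they were GTF2I (r = 0.997), which has near-identical copies in the genome and is therefore uncertain, CIAO2A, CENPK and NUF2, both kinetochore genes, and the kinase MELK (r = 0.99). For TFDP1 they were RNF26 (r = 0.99), NIF3L1, UBE2E3, MCMBP, a binding protein of the MCM helicase, and SKP2 (r = 0.99). The lists of the 4 members held 20 different genes.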

How the data were processed

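SF8628 cells were profiled by RNA-Seq in 12 libraries, 3 replicates in each of 4 groups named by the labels. CUT&RUN samples of the series (5) were not analysed here. FastQC was used by the authors on the paired-end reads, STAR for alignment to hg38, HTSeq-count for the gene counts, and DESeq2 with its defaults after that. Versions, annotation and strand setting are not given in the sources used here. The deposited values are a signal, gene counts divided by the DESeq2 size factor of each library. The same table holds the mean, the log2 fold changes with their standard errors, a test score, p-values and adjusted p-values that the authors computed with DESeq2, which were not used. In every library 100% of values were whole reads within 0.02, so counts were recovered, and 0 entries named no gene.

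The 15599 genes of 60664 that averaged 10 normalized counts or more were analysed as log2(normalized count + 1) with limma (lmFit, eBayes with trend, all 4 groups in 1 fit, 8 residual degrees of freedom), two-sided with Benjamini-Hochberg adjustment over all tested genes at 0.05. Fold changes are on this scale, which understates changes of low genes. Levels between genes were divided by the union of exons in GENCODE 44 (GRCh38), matched by identifier. Chi-square over degrees of freedom between replicates was 2.12 to 25.6.

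The members and lists were chosen with earlier results of these data known. Named were all members and pocket protein genes, up to 3 lowest and 3 highest genes per list over both times among those called at 24 and 48 hours, the 5 genes most like E2F1, E2F4, E2F7 and TFDP1, and overlapping genes or pseudogenes with a mean of at least 10. Protein sequences were not used here.

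The steps were tested on simulated data with 191 of 15001 genes changed by 1 on the log2 scale. At 24 hours limma recovered 78% with 3.25% of calls false, edgeR 78.5% with 3.23% and DESeq2 79.6% with 12.1%. In the libraries of the series 10679 of 15599 genes were called at 24 hours. The performance of the steps with so large a share of genes was not tested. Alternatives were pseudocounts of 0.5 and 10, no minimum mean or 100, scaling on 7 stably expressed genes, equal totals or quantiles, edgeR and DESeq2 on recovered reads, a replicate block, only the groups compared, eBayes without trend, a minimum log2 fold change of 1, the longest transcript as length and leaving out each library. Software was limma 3.58.1, DESeq2 1.42.0 and edgeR 4.0.16 under R 4.3.3, and pandas 2.3.3 and scipy 1.17.1 under Python 3.11.15.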

Additional observations from a re-analysis of the deposited data

Results flagged for a closer look

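The effect of AZD5153 differed between 24 and 48 hours for 5 E2F and DP genes and for a pair of pocket protein genes, by the interaction term of the limma fit adjusted over all genes, where 14.4% of all genes were called with the higher value at 48 hours and 10.1% with the lower. Written as the log2 fold change at 48 hours minus that at 24 hours, the differences were 2.08 for E2F8, 1.14 for E2F2, 0.61 for TFDP1, 0.58 for E2F7 and 0.53 for E2F1. The call of E2F1 was lost with eBayes without trend and without any 1 of 4 libraries (adjusted p from 0.051 to 0.06). For the pocket proteins they were 1.04 for RBL1 (adjusted p = 0.00017) and 0.32 for RBL2 (adjusted p = 0.036). All 7 were lower with AZD5153 at both times and less so at 48 hours. Each difference joins a change over time in DMSO with one in AZD5153. In DMSO E2F8 (-0.83), RBL1 (-0.57, adjusted p = 0.00076, limma), TFDP1 (-0.40) and E2F7 (-0.30) were called lower at 48 than at 24 hours. E2F1 (-0.21), E2F2 (-0.29) and RBL2 (0.19) were not called there. In AZD5153 the changes of the 7 lay between 0.20 (TFDP1) and 1.26 (E2F8).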

How the results depend on the processing

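Of 60 results on single members (10 genes in 6 comparisons), 16 kept their direction and call under every alternative, and of 1540 values under alternatives 1454 did so, 64 lost the call, 11 gained it and 11 turned in sign. Requiring a log2 fold change of 1 besides the adjusted p lowered the genes called from 10679 to 4140 at 24 hours, from 10453 to 3959 at 48 hours, from 11819 to 3999 over both times, from 3829 to 754 for the difference of effects, from 5566 to 580 over time in DMSO and from 4627 to 573 over time in AZD5153. It left 3 members lower at 24 hours (E2F2, E2F7 and E2F8), 2 at 48 hours (E2F2 and E2F8) and 3 over both times, 0 higher at 48 hours or over both times, 2 with a difference of effects, 0 lower over time in DMSO, and 0 lower and 1 higher over time in AZD5153. Of the S phase targets it left 20 lower and 0 higher at 48 hours. Shares of all genes in each direction are not given under alternatives, so these counts cannot be set against a background. Scaling to equal totals, which shifted the median of all genes by -0.12 at 24 hours, -0.17 at 48 hours and -0.15 over both times, left 0 members higher at 48 hours and over both times, and quantile normalization shifted it by 0.11, 0.16 and 0.15 and added 1 member higher over time in DMSO. The sign turned for E2F6 at 24 hours (-0.0248 on stably expressed genes, -0.1015 with equal totals, and -0.0364 to 0.0887 when each library was left out, below 0 without DMSO 24 h replicate 1 or AZD5153 24 h replicate 3), for E2F6 over time in AZD5153 (0.0742 on stably expressed genes, and -0.0769 to 0.0481 when each library was left out, above 0 without AZD5153 24 h replicate 3 or AZD5153 48 h replicate 2), for E2F4 over time in AZD5153 (-0.0041 with quantiles, -0.0062 with edgeR, and -0.0445 to 0.0328 when each library was left out, below 0 without AZD5153 48 h replicate 1) and for E2F5 over time in DMSO (-0.1981 to 0.0087, above 0 without DMSO 24 h replicate 1). None of these had been called. Leaving out each library in turn gave 8 members lower at 24 hours in every case and 7 to 9 at 48 hours, 4 to 7 with a higher effect at 48 hours, 5 to 7 lower and 0 to 1 higher over time in DMSO, and 1 to 2 lower and 4 to 6 higher over time in AZD5153. The activator to repressor ratio over both times was 0.985 in DMSO and 0.603 in AZD5153, and 0.755 and 0.463 with the longest transcript. With the replicate block 10526 genes were called at 24 hours and 10290 at 48 hours, and 8 and 9 members were lower. The labels do not say whether replicate numbers pair the libraries. Deviations of same-numbered libraries correlated at -0.15 to 0.04 over 18 pairs, and 15 of 36 matches were best with the own number. No pairing was seen, though 3 libraries per group cannot exclude it. The cause of the shifts with scaling was not tested. E2F2 and E2F8 in AZD5153 rested on 13 to 66 reads per library, which limits how finely their folds are known.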
